A study of Mus musculus with 8 samples.

Results

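The guidance genes described here are the semaphorins, ephrins, slits and netrins, which act as ligands, and their plexin, neuropilin, Eph, Robo and Unc5 receptors. They were chosen by gene name, with no measured value in the choice: 96 of the 39429 probes on the array carried such a name, and these stood for 68 genes. Of the 68 genes, 48 were tested in a fit over 17537 genes, and 20 were not.

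The study compared 2 groups of NMuMG-NT2197 cells, a mouse mammary epithelial line that carries an activated form of the receptor tyrosine kinase Neu (ErbB2). Both groups received the pMSCV/hygro vector, with a wild-type ShcA cDNA in 4 samples and with ShcA R175Q in the other 4. ShcA is an adaptor protein that binds phosphotyrosine on activated receptors, and R175Q puts glutamine for arginine in its PTB domain, which makes that contact. The labels do not say whether the cells were clones or pools, nor whether the samples of a group were separate cultures, so a p value here speaks of the spread among these samples only, which may be technical. By the labels, every sample started from 1 to 2.5 ng of RNA and was amplified in 2 rounds. On each array 1 sample was labelled with Cy3 and the same reference RNA with Cy5, and values below are log2 of Cy3 over Cy5 (sample over reference). The labels describe the reference as mouse in one place and human in another, and they call the RNA microdissected although the cells were cultured.

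Semaphorins signal through plexins, and most secreted class 3 semaphorins first bind a neuropilin that holds the plexin. Ephrins sit on the surface of one cell and Eph receptor tyrosine kinases on that of its neighbour, so contact sends signals into both cells. Slits bind Robo receptors, and netrins bind Dcc, neogenin and Unc5 receptors. These systems were first described in growing axons, and in mammary epithelium they are known for roles in duct branching and in the adhesion and motility of tumour cells.

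Of the 48 tested guidance genes, 8 were higher and 10 lower in R175Q at an adjusted p under 0.05 in limma, and 30 did not pass. The share called was 37.5%, beside 19.4% of all 17537 genes tested, of which 9.6% were higher and 9.76% lower. Among genes well above background on all 8 arrays, as 46 of the 48 guidance genes were, 20.2% were called. The values of the 2 groups did not overlap in 18 of the 48, beside 23.9% of all genes. The median difference was -0.02 for the 48 genes and -0.01 for all genes. Median centring in place of loess split the calls over all genes into 1761 higher and 1188 lower, beside 1683 and 1711, and called 8 guidance genes higher and 7 lower. Without R175Q replicate 2, R175Q replicate 3 or wild-type replicate 2, 5 guidance genes were higher in place of 8, and in each case Plxna2, Plxnb3 and Plxnd1 no longer passed. With the normexp background fitted to all spots in place of one taken from negative control spots, 2 guidance genes were higher and 2 lower, as described further on.

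**Figure D1:**
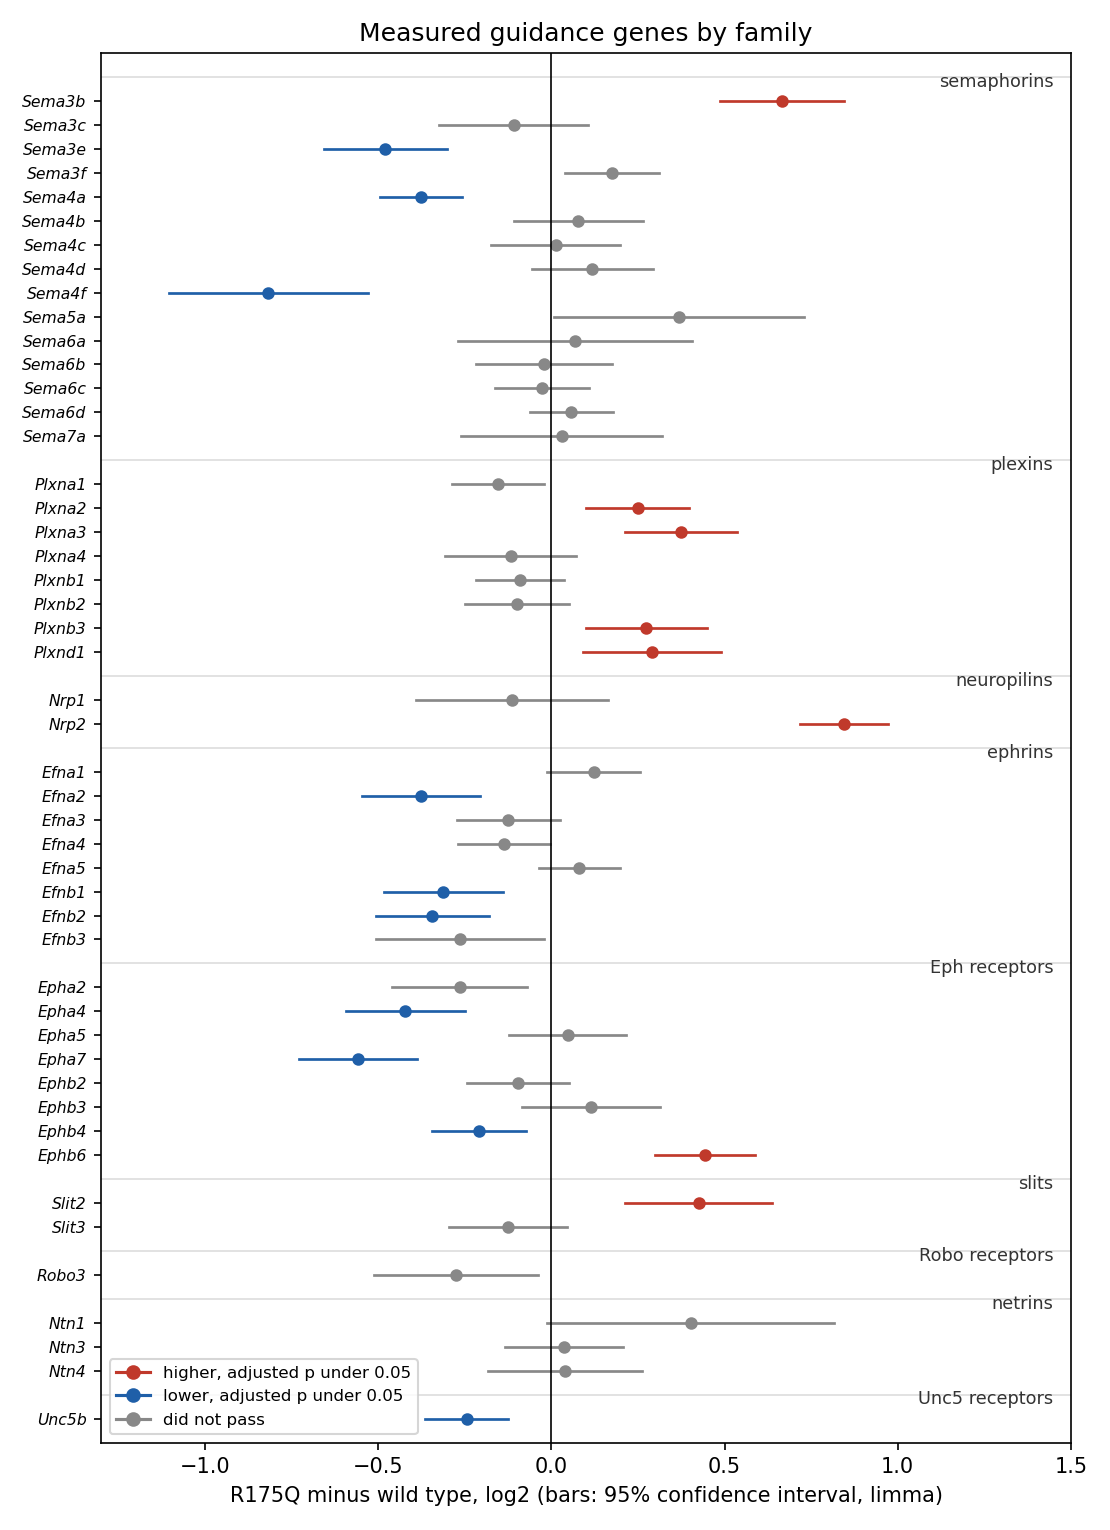
Difference between R175Q and wild type (log2, x axis) for the 48 tested guidance genes by family; points are the fitted differences, bars the 95% confidence intervals before adjustment for multiple testing, and colour marks an adjusted p under 0.05. The 4 plexins that passed lie to the right of 0, the 3 ephrins that passed lie to the left, and some grey intervals exclude 0 although the gene did not pass after adjustment.

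Of the 2 neuropilins, Nrp2 rose in R175Q and Nrp1 did not pass; the difference between the 2 genes was not tested. Nrp2, the co-receptor of Sema3f and several other class 3 semaphorins, had log2 ratios of 1.47, 1.50, 1.57 and 1.58 on R175Q arrays 1 to 4 and 0.69, 0.60, 0.76 and 0.69 on wild-type arrays 1 to 4. All 4 R175Q arrays lay above all 4 wild-type arrays, by more than the spread within either group. The rise was 0.85 ± 0.057 (SE, n = 4 per group), or 1.80-fold, with an adjusted p of 8.77e-06 in limma, the smallest among the guidance genes. Within the 3 slides that held both groups, the rise was 0.81, 0.89 and 0.89. For Nrp1, the neuropilin that also binds VEGF, the ratios were 2.18, 2.30, 1.77 and 2.00 in R175Q and 2.30, 2.09, 1.96 and 2.36 in wild type, which overlapped. Its difference was -0.11 (95% confidence interval -0.39 to 0.16, adjusted p = 0.595, limma).

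Nrp2 was measured by 2 probes at separate positions of chromosome 1 (mm9, plus strand), and their first 30 of 60 bases are shown because the finding rests on both, the brighter one first and with no part in capitals:
Nrp2 chr1:62865129-62865188: tgagccagatcacgggaactcgagagcttt
Nrp2 chr1:62843298-62843357: ggtttctgttggctgtcattgtcatctcca

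The second of these probes read 1.23, 1.14, 1.36 and 1.22 in R175Q and 0.60, 0.64, 0.63 and 0.63 in wild type. It too separated the groups, with a rise of 0.61 ± 0.060 (SE, n = 4 per group) and an adjusted p of 9.39e-05 when limma was run over every probe.

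Among the secreted class 3 semaphorins, Sema3b rose and Sema3e fell, while Sema3c and Sema3f did not pass. Sema3b, a neuropilin ligand often described as a growth suppressor in epithelial tumours (chr9:107500686-107500745, mm9), had ratios of 0.82, 0.77, 0.77 and 0.79 in R175Q and 0.067, -0.0085, 0.36 and 0.062 in wild type. The R175Q arrays lay close together and above every wild-type array, of which replicate 3 was the highest. The rise was 0.67 ± 0.080 (SE), 1.59-fold, with an adjusted p of 0.000329.

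Sema3e, the semaphorin that binds Plxnd1 without a neuropilin (chr5:14256598-14256656), read 1.67, 1.74, 1.65 and 1.64 in R175Q and 2.25, 1.92, 2.21 and 2.25 in wild type. Every R175Q array lay below every wild-type array, and wild-type replicate 2 stood below the other wild-type arrays. It fell by 0.48 ± 0.080 (SE), 1.39-fold, with an adjusted p of 0.00229. The call was lost with the background fitted to all spots (-0.0098).

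Sema3f, the main class 3 ligand of Nrp2, was looked at after its values were seen because its probe lies 83088 bases from that of Sema3b on chromosome 9. Its ratios were -0.32, -0.36, -0.49 and -0.42 in R175Q and -0.61, -0.54, -0.50 and -0.64 in wild type. The groups did not overlap, but the difference of 0.17 did not pass (adjusted p = 0.0725). Sema3b passed and Sema3f did not, and the difference between the 2 genes was not tested.

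Of the membrane-bound semaphorins, Sema4a and Sema4f fell and the other 9 tested did not pass. Semaphorins of both kinds together had 4 calls among 15 tested genes, 1 higher and 3 lower. That is 26.7% called, beside 19.4% of all genes tested (9.6% higher and 9.76% lower). Sema4f (chr6:82862388-82862447), a transmembrane semaphorin first described in nervous tissue, had ratios of -1.58, -1.67, -1.10 and -1.34 in R175Q and -0.66, -0.76, -0.36 and -0.65 in wild type. The groups did not overlap, and R175Q replicates 1 and 2 were the lowest arrays. It fell by 0.82 ± 0.13 (SE), 1.76-fold, with an adjusted p of 0.00167, the largest fall among the guidance genes tested. The call was lost with the background fitted to all spots (-0.61).

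Sema4a (chr3:88239906-88239965), known as a ligand in immune cells, read -0.89, -0.91, -1.003 and -0.87 in R175Q and -0.60, -0.52, -0.54 and -0.53 in wild type. The wild-type arrays all lay above the R175Q arrays. Sema4a fell by 0.38 ± 0.053 (SE), 1.30-fold, with an adjusted p of 0.000916. The call was lost with the background fitted to all spots (-0.36).

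Sema5a, a ligand of Plxnb3, had the largest difference among the semaphorins that did not pass, 0.37 (adjusted p = 0.152), with 95% limits of 0.0078 to 0.73. The other tested semaphorins without a call (Sema3c, Sema4b, Sema4c, Sema4d, Sema6a, Sema6b, Sema6c, Sema6d and Sema7a) had differences from -0.11 for Sema3c to 0.12 for Sema4d.

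Of the 8 tested plexins, the receptors through which semaphorins signal, 4 were higher in R175Q, none was lower, and 4 did not pass. That is 50% called in a small family, beside 19.4% of all genes tested (9.6% higher and 9.76% lower). The 4 that rose were Plxna3, Plxna2, Plxnb3 and Plxnd1, with rises of 0.25 to 0.37. Plxna3 (chrX:71589923-71589982), a partner of neuropilins, had ratios of -1.22, -1.21, -1.19 and -1.02 in R175Q and -1.66, -1.60, -1.45 and -1.44 in wild type. R175Q replicate 4 was the highest array, and no wild-type array reached the lowest R175Q array. The rise was 0.37 ± 0.072 (SE), 1.30-fold, with an adjusted p of 0.00528. It held on leaving out any single array, but with the background fitted to all spots the difference was -0.051 (adjusted p from 0.000767 to 0.897 over 29 alternatives). With slide as a fixed block Plxna3 was the only plexin of the 4 still called.

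Plxna2 (chr1:196642958-196643017), which pairs with neuropilins for class 3 semaphorins and also binds class 6 semaphorins, had ratios of 2.37, 2.41, 2.43 and 2.48 in R175Q and 2.20, 2.05, 2.13 and 2.32 in wild type. The groups did not overlap, but wild-type replicate 4 came close to R175Q replicate 1. The rise was 0.25 ± 0.066 (SE, adjusted p = 0.0261). It no longer passed when R175Q replicate 2, 3 or 4 or wild-type replicate 1 or 2 was left out, and over its 29 alternatives the adjusted p ran from 0.00926 to 0.599.

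Plxnb3 (chrX:71017572-71017631), the Sema5a receptor, read -0.46, -0.53, -0.39 and -0.73 in R175Q and -0.84, -0.87, -0.75 and -0.74 in wild type. R175Q replicate 4 stood next to the wild-type arrays, and within the slide that it shared with wild-type replicate 4 the difference was 0.014, beside 0.30 and 0.43 in the other 2 slides that held both groups. The rise was 0.27 ± 0.078 (SE, adjusted p = 0.0343), and the call was lost on leaving out R175Q replicate 1, 2 or 3 or wild-type replicate 1, 2 or 4 (adjusted p from 0.00215 to 0.88 over 29 alternatives).

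Plxnd1 (chr6:115904829-115904888), the receptor of Sema3e, had ratios of 0.51, 0.44, 0.54 and 0.45 in R175Q and 0.12, 0.036, 0.47 and 0.15 in wild type. The groups overlapped, since wild-type replicate 3 lay among the R175Q arrays. Its rise of 0.29 ± 0.089 (SE) had an adjusted p of 0.046, the largest among the calls. Leaving out any single array except wild-type replicate 3 ended the call, and over 29 alternatives its adjusted p ran from 0.000447 to 0.474.

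The 4 plexins without a call, Plxna1, Plxna4, Plxnb1 and Plxnb2, had differences from -0.15 to -0.091, all below 0. Plxnc1 was well above background on no array and was not tested.

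**Figure D2:**
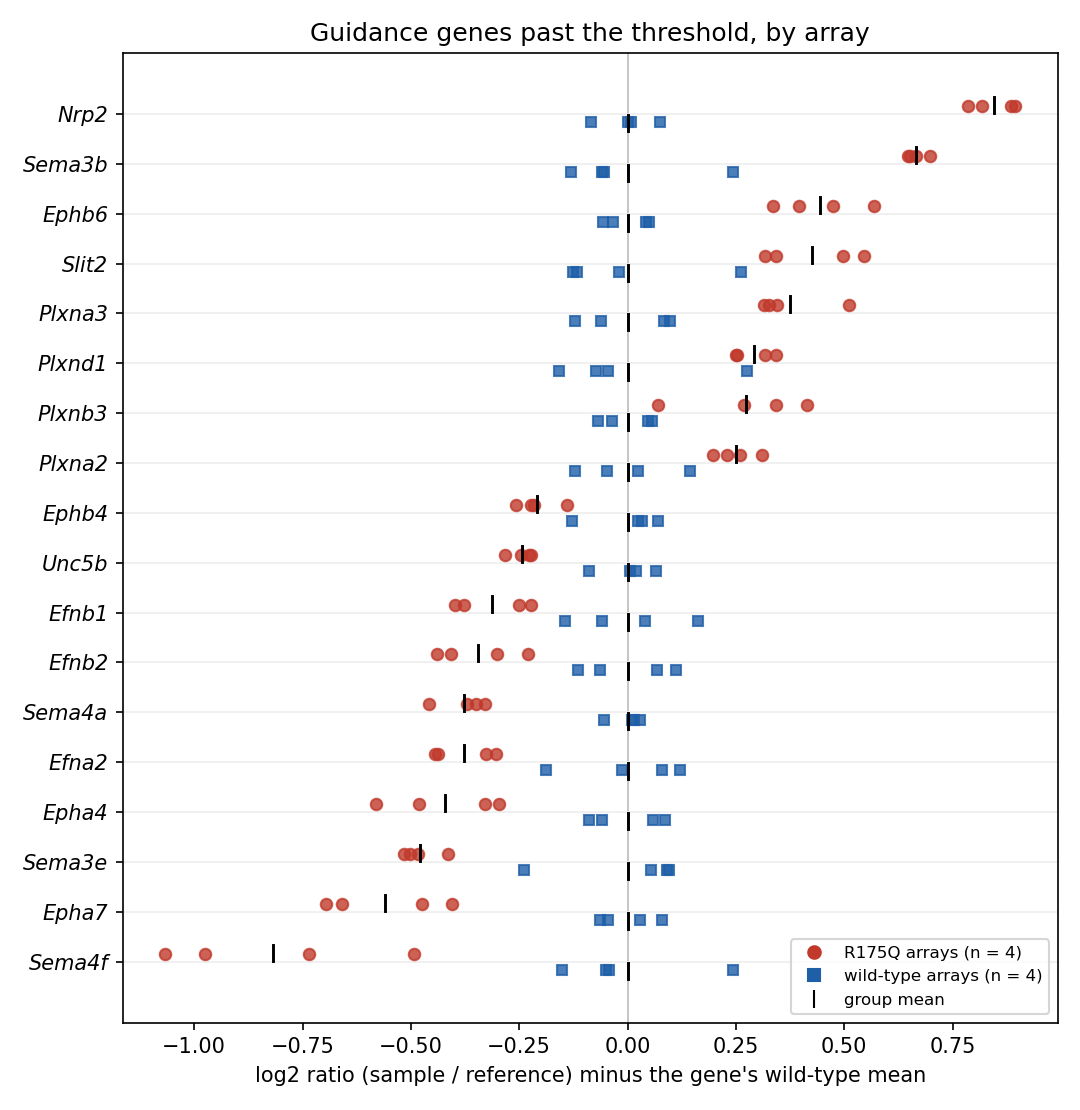
Log2 ratio of sample over reference on each array, less the gene's mean over the wild-type arrays (x axis), for the 18 guidance genes past the threshold; circles are R175Q arrays, squares wild-type arrays and black bars group means. The groups are separate for every gene shown except Plxnd1, and 1 wild-type array of Sema3b (replicate 3), of Slit2 (replicate 4) and of Sema3e (replicate 2) stands off from its group.

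All 8 ephrins, the membrane-bound ligands of Eph receptors, were measured on all 8 arrays. Of them 3 were lower in R175Q, none was higher, and 5 did not pass. That is 37.5% called, beside 19.4% of all genes tested (9.6% higher and 9.76% lower). Efna2 (chr10:79652324-79652383), an A-class ephrin held in the membrane by a lipid anchor, had ratios of -0.56, -0.53, -0.67 and -0.67 in R175Q and -0.11, -0.24, -0.42 and -0.15 in wild type. No wild-type array fell into the R175Q range, with replicate 3 the closest. Efna2 fell by 0.38 ± 0.076 (SE), 1.30-fold, with an adjusted p of 0.00684. The call was lost with the background fitted to all spots (-0.31).

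Efnb2 (chr8:8618177-8618236), the transmembrane ligand of Ephb4, read 0.37, 0.40, 0.58 and 0.51 in R175Q and 0.69, 0.92, 0.87 and 0.74 in wild type. The 2 ranges were apart. It fell by 0.34 ± 0.073 (SE), 1.27-fold, with an adjusted p of 0.00875, and the mean of its 2 probes did not pass (-0.19, adjusted p = 0.151, in a range of 0.00116 to 0.194 over 29 alternatives).

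Efnb1 (chrX:96343505-96343564), a transmembrane ephrin encoded on the X chromosome, read 0.22, 0.071, 0.25 and 0.091 in R175Q and 0.51, 0.32, 0.63 and 0.41 in wild type. Wild-type replicate 2 was the closest to the R175Q arrays. It fell by 0.31 ± 0.077 (SE, adjusted p = 0.0189), and the call was lost without R175Q replicate 2, R175Q replicate 4 or wild-type replicate 1 (adjusted p from 0.00103 to 0.261 over 29 alternatives). Efnb3, the other B-class ephrin tested, had a difference of -0.26 that did not pass (adjusted p = 0.129).

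Efna1, Efna3 and Efna4 lie next to each other on chromosome 3, with 43219 bases between the probes of the first pair and 19140 between those of the second. None of them passed, and their differences were 0.12, -0.12 and -0.14. Efna5 differed by 0.081 and did not pass either.

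Of the 8 tested Eph receptors, 3 were lower in R175Q, 1 was higher and 4 did not pass. That is 50% called, beside 19.4% of all genes tested (9.6% higher and 9.76% lower). Epha7, a receptor of A-class ephrins with a truncated form known to block the full one, had ratios of 2.24, 2.17, 1.99 and 1.95 in R175Q and 2.60, 2.58, 2.68 and 2.73 in wild type. The wild-type arrays lay close together and all above the R175Q arrays. Epha7 fell by 0.56 ± 0.077 (SE), 1.47-fold, with an adjusted p of 0.000758, and its differences within slides were -0.43, -0.64 and -0.78. The call was lost with the background fitted to all spots (-0.21).

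Epha7 had 2 probes above background on chromosome 4 (mm9, plus strand), and their first 30 of 60 bases follow, since both fell:
Epha7 chr4:28891069-28891128: tggccatcaaaagaagatcatgagcagcat
Epha7 chr4:28869764-28869823: tgtcatcataattgctgtagtggctgtagc

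The second probe fell by 0.40 ± 0.086 (SE, adjusted p = 0.00938 over every probe), and the other Epha7 probe on the array was well above background on no array.

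Epha4 (chr1:77364339-77364398), which binds ephrins of both classes, had ratios of 3.12, 2.97, 3.15 and 2.87 in R175Q and 3.54, 3.36, 3.39 and 3.51 in wild type. The groups did not overlap. It fell by 0.42 ± 0.077 (SE), 1.34-fold, with an adjusted p of 0.004, and its difference within the slide of R175Q replicate 3 was -0.22, beside -0.57 and -0.64 in the other 2. The call was lost with the background fitted to all spots (-0.14).

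Ephb4 (chr5:137815646-137815705), the receptor of Efnb2, read 0.64, 0.56, 0.52 and 0.56 in R175Q and 0.81, 0.65, 0.85 and 0.81 in wild type. Wild-type replicate 2 lay just above the highest R175Q array. It fell by 0.21 ± 0.061 (SE, adjusted p = 0.0375). This call was lost when any single array except wild-type replicate 2 was left out, with an adjusted p from 0.00241 to 0.287 over 29 alternatives. Efnb2 and Ephb4, a ligand and its receptor, thus had differences of the same sign. Those of Sema3e (-0.48) and its receptor Plxnd1 (0.29) had opposite signs.

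Ephb6 (chr6:41570442-41570501) was the one Eph receptor that rose. It is known as the member whose kinase domain lacks catalytic activity. Its ratios were -0.87, -0.97, -1.11 and -1.05 in R175Q and -1.50, -1.40, -1.39 and -1.47 in wild type, with every R175Q array above every wild-type array. The rise was 0.44 ± 0.064 (SE), 1.36-fold, with an adjusted p of 0.00104. This call was lost with the background fitted to all spots (0.28). It rests on 1 probe, since the other Ephb6 probe was well above background on only 1 array of each group.

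The Eph receptors without a call were Epha2, Epha5, Ephb2 and Ephb3. Epha2, the main partner of Efna1 in epithelium and named after its values were seen, read 1.05, 1.06, 1.34 and 1.08 in R175Q and 1.29, 1.41, 1.58 and 1.32 in wild type. These ranges overlapped through R175Q replicate 3, and the difference of -0.27 had an adjusted p of 0.0618. Ephb1, also named after its values were seen, was well above background on all 8 arrays but was not tested, because its spot on R175Q replicate 4 was marked as unreliable. Its ratios were 4.38, 4.22 and 4.32 on R175Q arrays 1 to 3 and 4.60, 4.40, 4.45 and 4.61 on wild-type arrays 1 to 4, so the 3 R175Q values lay below the 4 wild-type values.

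Slit2 (chr5:48696673-48696732), a secreted Robo ligand known to restrain branching of the mammary duct, had ratios of -1.08, -1.06, -0.90 and -0.85 in R175Q and -1.42, -1.51, -1.52 and -1.14 in wild type. All R175Q arrays lay above all wild-type arrays, of which replicate 4 came closest. The rise was 0.43 ± 0.095 (SE), 1.34-fold, with an adjusted p of 0.0116. The call was lost with the background fitted to all spots. Slit3 differed by -0.12 and did not pass (adjusted p = 0.312). Slit1 was well above background on no array.

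Of the Robo receptors, through which slits signal, only Robo3 was tested. Its ratios were -0.98, -0.73, -1.11 and -1.29 in R175Q and -0.68, -0.75, -0.82 and -0.76 in wild type, and it was well above background on all 4 wild-type arrays but on only 2 R175Q arrays. R175Q replicate 2 lay among the wild-type arrays, and the difference of -0.28 ± 0.11 (SE) did not pass (adjusted p = 0.104). With 2 R175Q arrays not above background, the size of this difference is not exact, and neither is the -0.38 that passed without R175Q replicate 2 (adjusted p from 0.0165 to 0.586 over 28 alternatives). Robo1 and Robo2 were well above background on 1 array each, and Robo4 on none.

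None of the 3 tested netrins passed. Ntn1, the founding netrin, had ratios of 2.15, 1.81, 1.71 and 1.22 in R175Q and 1.59, 1.03, 1.46 and 1.20 in wild type. The ranges overlapped widely, R175Q replicate 1 being the highest and replicate 4 lying with the wild-type arrays. Its difference was 0.40 ± 0.19 (SE, adjusted p = 0.173), and without R175Q replicate 4 it was 0.57 with an adjusted p of 0.0341 (range 0.0165 to 0.503 over 29 alternatives). Ntn3 and Ntn4 differed by 0.037 and 0.039.

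Unc5b (chr10:60225398-60225457), a netrin receptor of the repulsive kind, was the only Unc5 receptor above background. It read 0.91, 0.94, 0.97 and 0.96 in R175Q and 1.19, 1.10, 1.25 and 1.21 in wild type. Both groups were tight and apart from each other. Unc5b fell by 0.24 ± 0.054 (SE), 1.18-fold, with an adjusted p of 0.0106. The call was lost with median centring, with the Cy3 channel alone, and with slide or scan day as a fixed block (adjusted p from 0.000373 to 0.248 over 29 alternatives). Unc5a, Unc5c and Unc5d were well above background on no array.

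The 18 genes with a call kept the sign of their difference within each of the 3 slides that held both groups. The groups of every called gene except Plxnd1 did not overlap, which fixes that sign, so this is no separate check. The 20 genes without a test were mostly dim: Epha6, Robo4, Unc5a, Unc5c, Unc5d, Ntn5, Plxnc1, Sema3a, Sema3d, Sema4g and Slit1 were well above background on no array. Epha1, Epha3, Epha10, Robo1, Robo2 and Sema3g reached that level on 1 array, and Epha8 and Sema5b on 2 arrays. No difference is given for these genes.

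Among the guidance genes, 11 had more than 1 probe above background, which allows a check within the gene. The 2 probes of Nrp2, Epha7 and Ephb4 passed in the same direction, with differences of -0.21 and -0.32 for Ephb4. Plxnd1 rose by 0.29 by its brighter probe, and the other probe gave 0.18 and did not pass (adjusted p = 0.181). For Efnb2 the dimmer probe gave -0.045, well above background on 2 arrays of each group (adjusted p = 0.834).

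In Sema3c, named after its values were seen, the brightest probe did not pass while another did. The second Sema3c probe fell by 0.21 (adjusted p = 0.047), beside -0.11 for the brightest one. The second Epha5 probe (chr5:84494886-84494945, mm9) was well above background on 4 wild-type arrays but on 1 R175Q array, so it gives no exact difference to set beside the 0.047 of the brightest Epha5 probe (chr5:84487348-84487407).

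The 2 probes named Plxna2 lie on different chromosomes in the files' own coordinates, and the first 30 bases of each are shown because only the first matches the place of the gene:
Plxna2 chr1:196642958-196643017: catgtacctattgtaaatatgaaactccta
Plxna2 chr14:108739666-108739725: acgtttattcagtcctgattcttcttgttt

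The chromosome 1 probe gave the rise of 0.25, and the one on chromosome 14 gave 0.091 (adjusted p = 0.504). The chromosome 14 probe was left out of the main fit as the dimmer of the 2. It did enter the alternative that took the mean of a gene's probes.

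**Figure D3:**
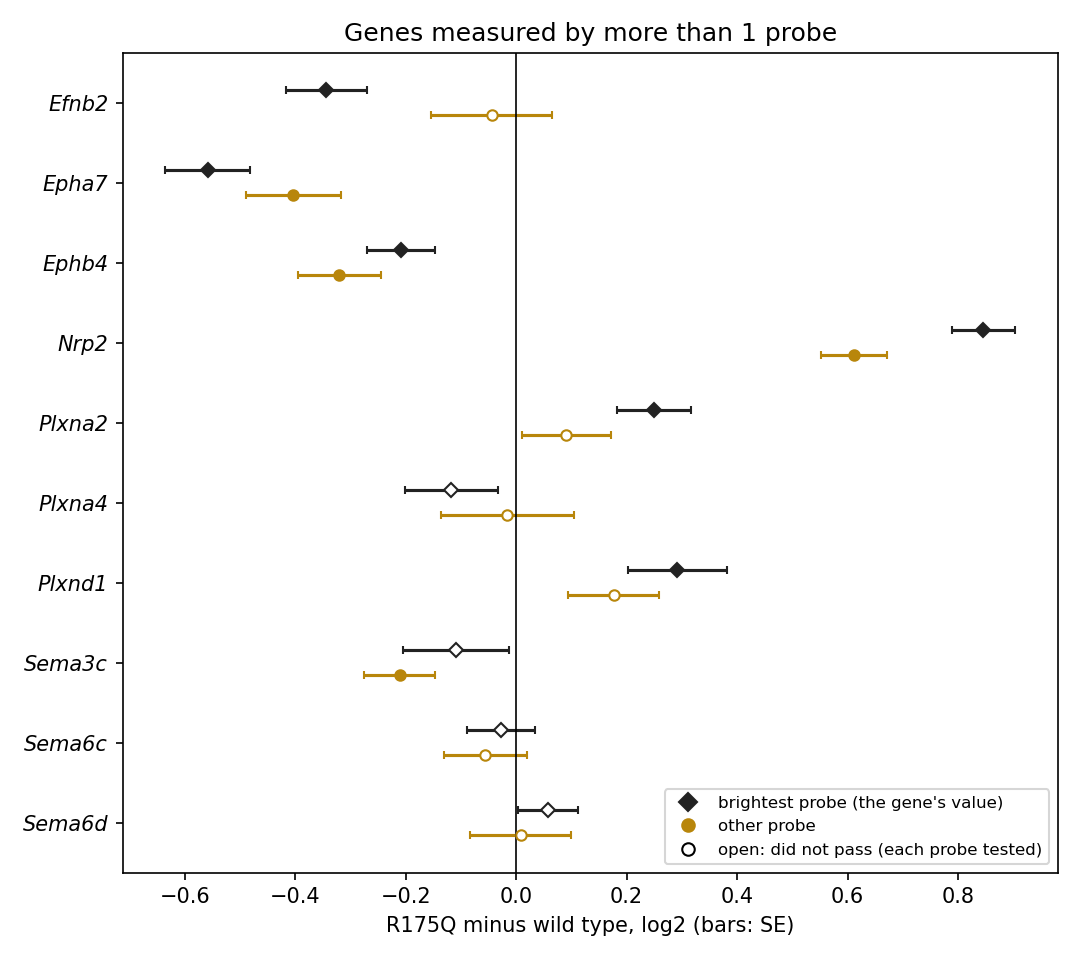
Difference between R175Q and wild type (log2, x axis) for each probe of 10 guidance genes with more than 1 probe above background, leaving out Epha5, whose second probe was above background on 1 R175Q array; bars are standard errors, diamonds the brightest probe of the gene, circles the other probe, and filled symbols passed when each probe was tested. The 2 Nrp2 probes lie at 0.85 and 0.61, and those of Ephb4 at -0.21 and -0.32.

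Promoter sequences of RefSeq (GRCm38.p6), 250 bases before to 50 after the start of transcription, were at hand for 41 of the 48 tested genes, among them 7 of those that rose and all 10 of those that fell. Those of Nrp2 and Ephb6, the receptors with the largest rises, and of Sema4f and Efnb2, 2 ligands that fell, are shown. Capitals mark a GC box, E-box, ETS core, TATA box or AP-1 site on either strand, whose letters are given with their counts, and neighbouring capitals can be overlapping matches:
Nrp2 chr1:62703067-62703366, plus strand: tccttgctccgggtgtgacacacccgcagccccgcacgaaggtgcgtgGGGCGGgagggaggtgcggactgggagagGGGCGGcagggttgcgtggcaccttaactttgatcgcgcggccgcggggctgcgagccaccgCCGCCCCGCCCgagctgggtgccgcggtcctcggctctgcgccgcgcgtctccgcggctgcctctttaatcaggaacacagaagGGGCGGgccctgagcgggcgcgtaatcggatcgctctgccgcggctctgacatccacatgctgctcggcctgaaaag
Ephb6 chr6:41605261-41605560, plus strand: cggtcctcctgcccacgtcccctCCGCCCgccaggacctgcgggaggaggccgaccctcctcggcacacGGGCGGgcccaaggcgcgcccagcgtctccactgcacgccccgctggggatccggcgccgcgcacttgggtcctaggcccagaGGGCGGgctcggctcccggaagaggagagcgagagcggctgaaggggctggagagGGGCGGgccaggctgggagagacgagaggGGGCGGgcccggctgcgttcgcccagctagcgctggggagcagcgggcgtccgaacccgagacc
Sema4f chr6:82939720-82940019, minus strand: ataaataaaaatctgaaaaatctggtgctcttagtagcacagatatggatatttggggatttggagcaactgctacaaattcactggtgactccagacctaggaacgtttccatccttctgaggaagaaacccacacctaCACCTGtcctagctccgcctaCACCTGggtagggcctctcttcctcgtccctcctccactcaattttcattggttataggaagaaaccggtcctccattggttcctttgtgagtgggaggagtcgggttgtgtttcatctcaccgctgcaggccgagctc
Efnb2 chr8:8661193-8661492, minus strand: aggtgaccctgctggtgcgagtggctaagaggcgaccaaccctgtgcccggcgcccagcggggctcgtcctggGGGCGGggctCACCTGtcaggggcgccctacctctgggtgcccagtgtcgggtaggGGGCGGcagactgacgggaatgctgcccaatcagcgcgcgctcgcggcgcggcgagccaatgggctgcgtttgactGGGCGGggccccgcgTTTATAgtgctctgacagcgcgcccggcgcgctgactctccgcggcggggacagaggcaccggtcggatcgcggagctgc

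The promoters of Nrp2 and Ephb6 each held 5 GC boxes and were 70.7% and 76.3% G or C, beside a median of 52.7% over 32851 mouse promoters of this length. That of Efnb2 held 3 GC boxes, an E-box and a TATA box. The Sema4f promoter held 2 E-boxes and no GC box, and was 48.7% G or C.

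The GC box, GGGCGG, was common in these genes whichever way they moved. Of the genes with a promoter, 6 of 7 that rose and 8 of 10 that fell had one, as did 36 of the 41 tested genes, beside 35.7% of all promoters. A gene with several promoters was counted if any of them held the motif, while the share of all promoters counts each promoter once. The 41 genes had also passed the signal filter, which the share of all promoters does not require. The 2 shares are therefore not like for like. The E-box, CACCTG, was in 0 of 7 that rose, 2 of 10 that fell and 7 of the 41 tested genes, beside 20.2% of all promoters. The ETS core, GGAAGT, was in 0 of 7 and 4 of 10 of them and in 10 of the 41, beside 23.8%. A TATA box, TATAAA, was in 1 of 7 and 1 of 10 of them and in 2 of the 41, beside 13.6% of all promoters. The AP-1 site, TGACTCA, was in 0 of 7, 0 of 10 and 2 of the 41, beside 5.2% of all promoters. These matches describe the letters of the windows.

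Of 28 co-receptors and other partners of the guidance systems, 23 were tested, 4 were higher and 2 lower in R175Q. That is 26.1%, beside 19.4% of all genes, with a median difference of -0.04. Gpc1, a cell-surface heparan sulphate proteoglycan that binds slits, rose from -0.066, 0.064, 0.23 and 0.0057 on the wild-type arrays to 0.76, 0.79, 0.92 and 0.95 on the R175Q arrays. The rise was 0.80 ± 0.077 (SE, adjusted p = 8.30e-05). Nrcam, an adhesion molecule that joins Nrp2 in the Sema3f receptor, read -1.62, -1.71, -1.48 and -1.44 in wild type and -2.51, -2.47, -2.13 and -2.27 in R175Q, and fell by 0.78 ± 0.097 (SE, adjusted p = 0.000392). Neither gene's groups overlapped.

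Mst1r, the Ron receptor kinase that can associate with B-type plexins, fell by 0.71 (adjusted p = 0.00126). Flrt2, a ligand of Unc5 receptors, rose by 0.47 (adjusted p = 0.000324), Plxdc1, a plexin domain protein, by 0.43 (adjusted p = 0.000809), and Rgmb, a ligand of neogenin, by 0.21 (adjusted p = 0.032). Leaving out any 1 array except wild-type replicate 3 ended the Rgmb call (adjusted p from 0.000497 to 0.925 over 29 alternatives). With the background fitted to all spots, Gpc1 was the only one of the 6 still called. Plxdc1 and Rgmb then changed sign, at -0.41 and -0.035, and Mst1r, Flrt2 and Nrcam had differences of -0.11, 0.13 and -0.73. Dscam, L1cam, Chl1 and Plxdc2 were well above background on no array.

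Of 46 cytoplasmic effectors, 42 were tested, 6 were higher and 3 lower, or 21.4%, beside 19.4% of all genes, with a median difference of -0.04. Ngef, an exchange factor that binds Epha4, rose from 1.05, 1.00, 1.02 and 1.10 in wild type to 1.78, 1.86, 1.70 and 1.89 in R175Q. All R175Q arrays lay well above the wild-type arrays, and the rise was 0.77 ± 0.059 (SE, adjusted p = 2.10e-05). Enah and Evl are relatives that act at the growing ends of actin filaments. Enah fell by 0.51 (adjusted p = 0.000205) and Evl fell by 0.34 (adjusted p = 0.00178). Rgs3, which can link B-class ephrins to G proteins, rose by 0.82 (adjusted p = 0.00219), Srgap3, which binds Robo receptors, by 0.44 (adjusted p = 0.00167) and Nck2, an adaptor of Eph and ephrin signals, by 0.26 (adjusted p = 0.0105). The other 3 calls, named after their values were seen, were Rasa1 (0.33) and Farp1 (0.23), which rose, and Limk1 (-0.26), which fell.

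**Figure D4:**
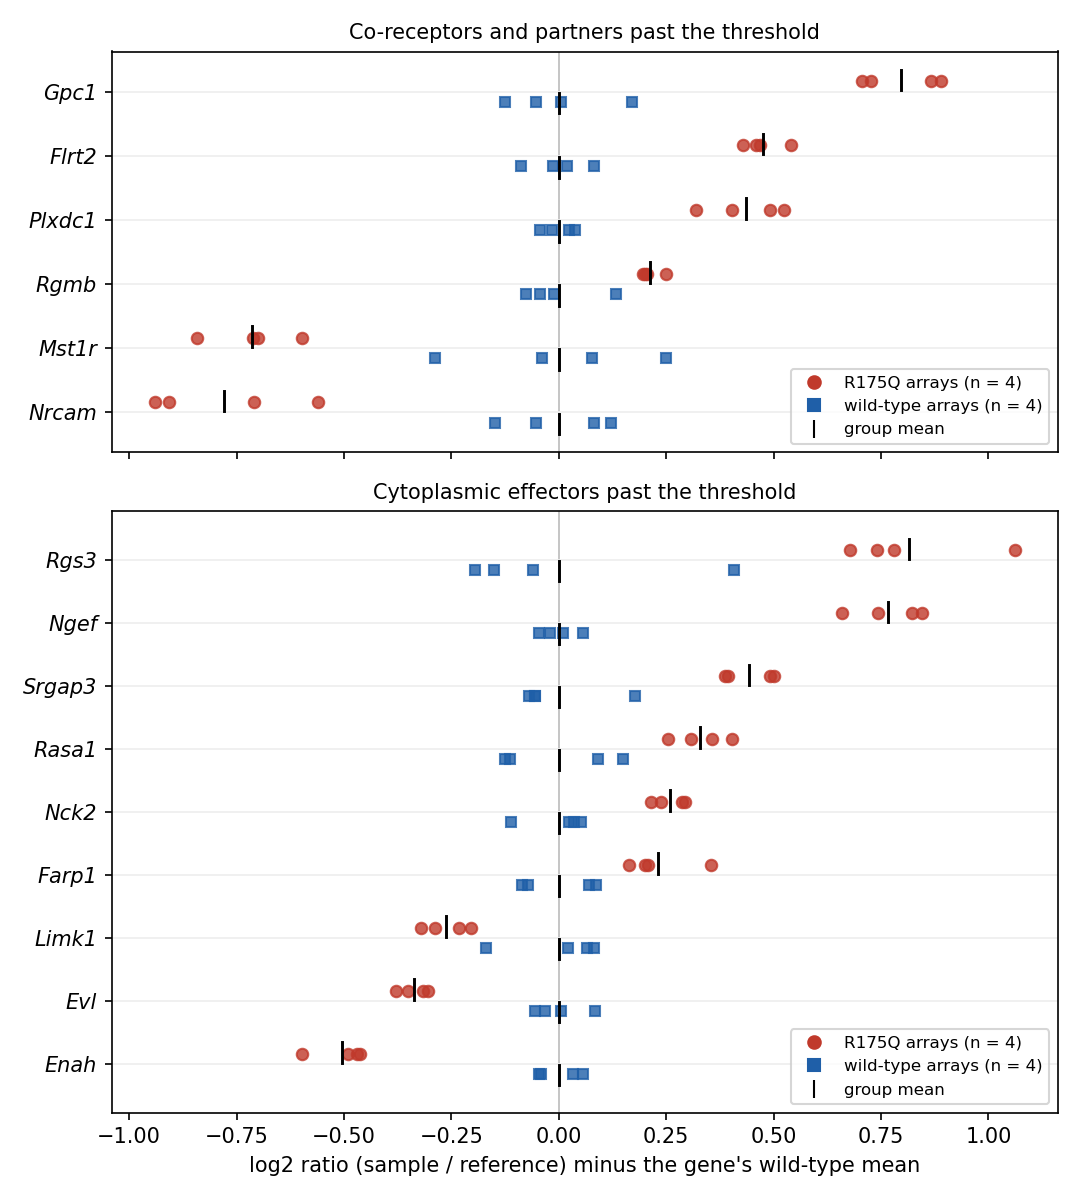
Log2 ratio on each array less the wild-type mean of the gene (x axis) for the 6 partners (top) and 9 cytoplasmic effectors (bottom) past the threshold; circles are R175Q arrays, squares wild-type arrays and black bars group means. The R175Q arrays of Gpc1 and Ngef all lie to the right of the wild-type arrays of the same gene, with mean rises of 0.80 and 0.77.

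Shc1, which encodes ShcA, did not differ past the threshold (-0.11, adjusted p = 0.528), nor did Erbb2 (-0.12, adjusted p = 0.236), and a probe does not tell the 2 forms of ShcA apart. Between 53.7% and 63.0% of spots were well above background in Cy3, with no saturated spot. Of 10 epithelial markers 8 were tested and 3 were called, or 37.5%, beside 19.4% of all genes tested. Krt7 fell by 1.89, Krt19 fell by 0.41 and Krt8 fell by 0.22. Epcam (-0.26), Krt18 (-0.20), Cldn7 (-0.10), Cdh1 (-0.0019) and Esrp1 (0.12) did not pass. Cldn3 was well above background on no array and Cldn4 on 1.

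Markers of other cell types moved with the groups as well. Of 11 fibroblast or pericyte markers 7 were tested and 4 rose (Pdgfrb, Dcn, Col1a2 and Col3a1); the mean log2 ratio of the list ran from -6.21 to -5.94 in R175Q and from -6.68 to -6.50 in wild type, with Lum, Dpt, Fap and Rgs5 above background on no array. Of 8 nerve or Schwann markers 5 were tested and 2 rose (S100b by 0.94 and Ngfr by 0.78), with list means of 0.65 to 0.78 and 0.32 to 0.41, and Stmn2 and Gfap on no array. Of 11 endothelial markers 4 were tested and Vwf rose by 0.85, with list means of -1.12 to -0.93 and -1.31 to -1.23, and Cdh5, Tek, Tie1, Emcn, Esam, Cldn5 and Erg on no array.

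Of 6 adipocyte markers 2 were tested and Fabp4 fell by 1.00, with list means of -0.37 to -0.072 in R175Q and 0.21 to 0.48 in wild type; Adipoq, Plin1, Lep and Cfd were above background on no array. Of 11 tested myeloid markers 1 rose and 1 fell, and none of 4 basal and 5 lymphocyte markers tested was called. In such bulk RNA, fewer cells of a type and less RNA per cell cannot be told apart, and the part of these markers in the differences of the guidance genes was not tested.

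The calls depended on how the background of the arrays was set. Under normexp with its background fitted to all spots, 872 genes were called in place of 3394, and 4 of the 18 guidance calls remained (Nrp2, Sema3b, Efnb2 and Unc5b), while 16 of 18 kept their direction. The fitted Cy3 background was -690 for R175Q replicate 4, -543 for wild-type replicate 3 and -0.369 for R175Q replicate 3, whereas the medians of the 153 negative control spots lay between 13.1 and 22.7 on all arrays. Plxna3 and Plxnb3 then had differences of -0.051 and -0.031, and Sema3e one of -0.0098. With the fitted background and slide as a fixed block, 6 genes and no guidance gene were called at an adjusted p under 0.05, and 2182 genes had an unadjusted p under 0.05.

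Across the 26 alternatives without a background fitted to all spots, all 18 kept their direction and 11 passed in each. The 7 that did not pass in every one of them were Efnb1, Efnb2, Unc5b, Plxna2, Plxnb3, Ephb4 and Plxnd1. Nrp2 stayed between 0.73 and 0.87 in these, and Sema4f between -1.10 and -0.73.

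**Figure D5:**
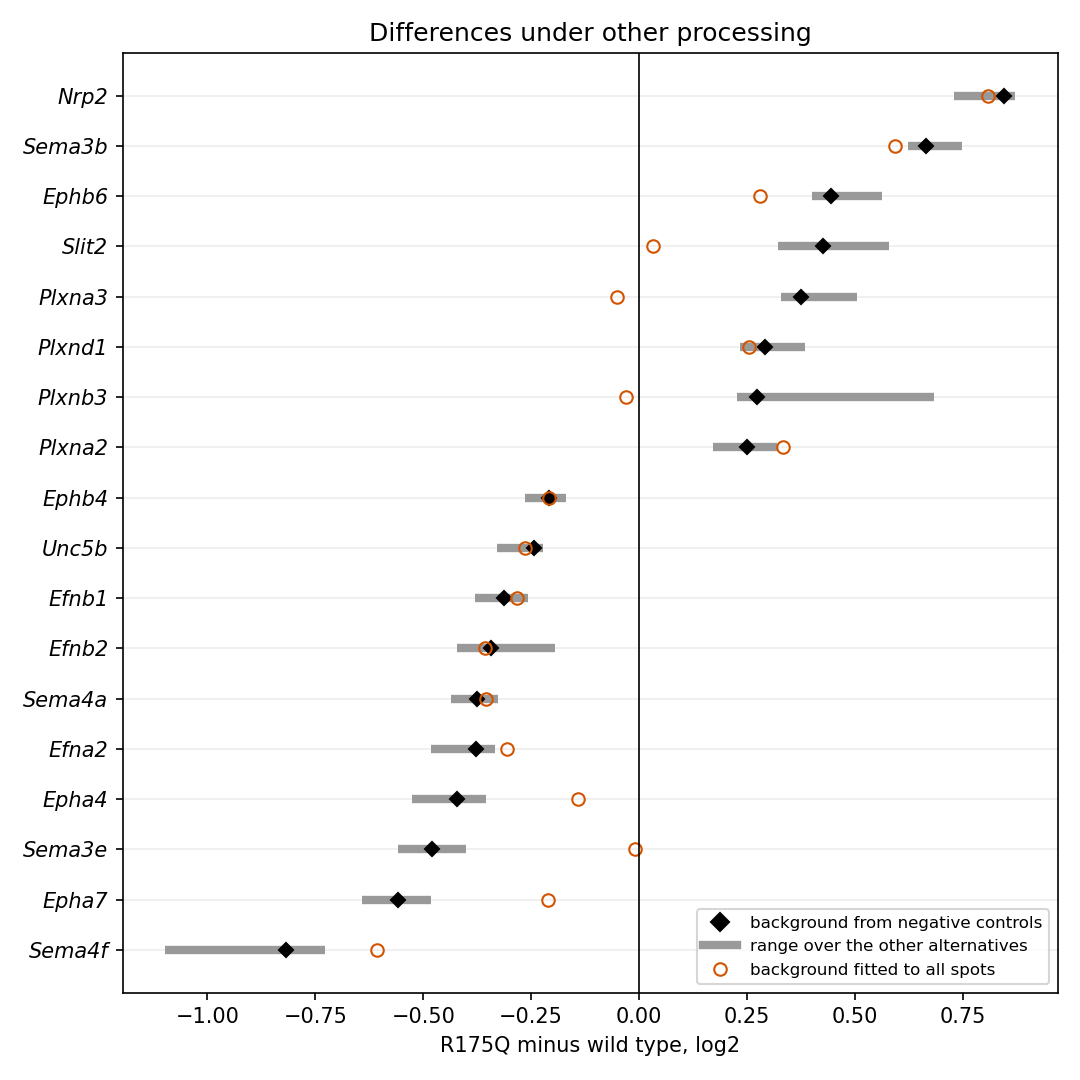
Difference between R175Q and wild type (log2, x axis) for the 18 guidance genes past the threshold under other processing; diamonds use the background of the negative control spots, grey bars span 26 alternatives without a fitted background, and open circles use the background fitted to all spots. The open circles of Plxna3 and Plxnb3 lie just left of 0, while that of Nrp2 lies at 0.81 within its bar.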

How the data were processed

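Gene expression was read on 8 Agilent two-colour arrays, 4 per group, grouped by the labels. The scanner files hold, per the file headers, a mean intensity and a median local background for each spot and the log10 of Cy5 over Cy3 from processed signals, made with Agilent Feature Extraction 9.5.3.1. Compared with that ratio, values of the deposited table are log2 of sample over reference (Pearson's r across probes 0.902 to 0.941, slope 0.657 to 0.751, column medians 0.0524 to 0.0617); its scaling and centring are unknown, and it served as an alternative.

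From the intensities, background was removed by normexp (offset 50) with its mean and SD taken from the 153 negative control spots, then loess was run within each array in limma 3.58.1 (R 4.3.3, statmod 1.5.0). Probes were kept if their Cy3 signal was well above background on 4 or more of the 8 arrays, without those with a value marked unreliable, and each gene took its brightest probe. R175Q less wild type was tested two-sided by lmFit and eBayes, and p-values were adjusted by Benjamini-Hochberg across 17537 genes, with 0.05 as threshold. The fit was tested on simulated data: it recovered 72% of genes changed by 0.5 log2 and 96% at 1, with 6.12% false calls, without array or background effects. Changes under 0.5 log2, the size of most guidance calls, were not simulated.

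The replicate numbers were checked for pairing: deviations of same-numbered samples correlated at 0.316, 0.0187, 0.560 and 0.108. This did not settle whether the samples are paired, and they were not treated as pairs. Slides and scan days were tried as blocks, since the slides hold both groups except slide 1, which holds R175Q replicate 1. Members, families, partner, effector and marker lists and the choice of background were made with earlier results of these data known. Guidance genes past the threshold, the lowest p of each family without one, and up to 6 genes per list were named; others were chosen after their values were seen. Probe coordinates are those of the files (mm9), promoters those of RefSeq (GRCm38.p6); where probes lie within exons was not determined. The number of arrays limits the precision.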

Additional observations from a re-analysis of the deposited data

Results flagged for a closer look

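In the R175Q and wild-type groups of the 18 called guidance genes, Ntn1 and Robo3, 40 groups of 4 arrays were examined for an array far from the other 3 of its group, and 2 were found. Chance alone picks about 1 in 20 groups. Wild-type replicate 2 of Sema3e, at 1.92, was lower than the next array at 2.21, a gap of 0.874 of the range of the group. R175Q replicate 4 of Plxna3, at -1.02, was higher than the next array at -1.19, a gap of 0.839 of the range.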

How the results depend on the processing

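With the background fitted to all spots, 872 genes were called, 2 guidance genes higher and 2 lower, 1 partner and 5 effectors, and the differences of Plxna3 (-0.051), Plxnb3 (-0.031), Plxdc1 (-0.41) and Rgmb (-0.035) reversed. Adding slide as a fixed block left 6 genes called, with 0 guidance genes higher, 0 lower, 0 partners and 0 effectors by limma (2182 genes at an unadjusted p under 0.05), and reversed Sema3e (0.058), Plxna3 (-0.086), Plxnb3 (-0.043), Plxdc1 (-0.47) and Rgmb (-0.079). Chosen after seeing the data, the fitted background without R175Q replicate 4 called 1708 genes, 3 guidance genes higher and 6 lower, and 2 partners, and reversed Epha7 (0.038), Sema3e (0.23), Epha4 (0.19), Plxna3 (-0.21), Slit2 (-0.12), Plxnb3 (-0.093), Plxdc1 (-0.79), Mst1r (0.10) and Rgmb (-0.15). The cause of these reversals was not tested. With arrayWeights 6809 genes, 13 partners and 19 effectors were called. With the replicate number as a block, 4035 genes, 9 guidance genes higher and 12 lower, and 14 effectors were called. Whether the numbers pair the samples was not settled: the best-matching wild-type array of R175Q replicates 1 to 4 was 1, 1, 3 and 2. Guidance genes higher numbered 5 with slide and 5 with scan day as a fixed block. Leaving out each array in turn gave 2426 to 4125 genes called, 5 to 9 guidance genes higher and 8 to 10 lower, 5 to 8 partners and 7 to 11 effectors. The other alternatives stayed within 1.5 times the counts given. Genes near background are limited by signal: 25 of the 96 probes were well above it on no array.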
